A study of Rattus norvegicus with 24 samples.

Results

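The livers described here came from the control animals of a study of female Sprague-Dawley rats, an outbred laboratory strain: 8 of the 24 livers that were sequenced, taken by their group label. These rats entered the experiment at 6 weeks of age, lived under 12 h of light a day, received oral saline daily and were 14 weeks old when the liver was removed after an overnight fast with free access to water. They carried no transgene, deletion or drug treatment. Each liver was 1 RNA-seq library of whole tissue, and the livers in constant darkness and with the probiotic were not used. The rats shared cages, but which livers shared a cage is not recorded in the labels, so the spread between livers holds animal, cage and library differences together. In whole tissue, fewer cells of a type and less RNA per cell cannot be told apart.

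Hepatocytes, the parenchymal cells of the liver, make most of the proteins of blood plasma and export them. The same cells hold the urea cycle, the breakdown of amino acids, the synthesis of glucose, ketone bodies, cholesterol and bile acids, and the enzymes that oxidise and conjugate foreign compounds. In a fasted animal the liver is known to release glucose from glycogen and from gluconeogenesis, and to oxidise fatty acids to ketone bodies.

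Values are FPKM, fragments counted per length of transcript and scaled to the mapped fragments of the library, so that levels of different genes are compared per length. Means are given ± SD over the 8 livers, and the spread of a gene is the SD of log2(FPKM + 1) over the livers. Of 30957 genes, 17266 were above 0 in at least 1 control liver, 12599 were above 0 in all 8, and 10422 had a mean of at least 1 FPKM. The number of genes at 1 FPKM or more ranged from 10057 to 10530 per liver. Outside the mitochondrial genome 574 genes reached a mean of 100 FPKM and 51 genes reached 1000 FPKM. An exact 0 in these values can be a failed estimate, since the housekeeping gene Hprt1 and the chaperone gene Hsp90aa1 were listed at 0 in all 8 livers. Such genes are given as listed at 0.

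Depth was known only in relative terms. In genes under 0.5 FPKM the values step by what a single read is worth, and the most common ratio of these steps between livers gave the relative depth. A single set of depths, taken from the pairs with control 1, fitted 27 of the 28 pairs of livers within 0.003 on the log2 scale. The pairs with control 1 fitted by construction. Control 8 was the shallowest library and control 6 the deepest, at 1.52 times the reads of control 8. The other 6 libraries lay between 1.15 and 1.44 times control 8. The absolute depth is unknown, so no counting interval is given.

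The labelled tissue and the albumin and transthyretin markers fitted the data. Alb was the most abundant transcript outside the mitochondrial genome in every liver, and Ttr ranked 4 by its mean. All 9 hepatocyte markers were above 1 FPKM, and together they held 13.6% ± 2.48 of the FPKM outside the mitochondrial genome. For the female label, Cyp2c12, the female-specific cytochrome P450 of rat liver, had 2086 ± 776 FPKM (1188 to 3430), while the male-specific Cyp2c11 had 1.89 ± 2.39 FPKM and the male-predominant Cyp3a2 had 1.95 ± 2.76 FPKM. The male-predominant list was not low as a sum, at 5307 ± 852 FPKM beside 4544 ± 1705 FPKM for the female-predominant list: Rup2 had 5176 ± 876 FPKM and Cyp4a2 120 ± 41.7 FPKM, while the other 8 measured members of the male list had means of at most 3.85 FPKM. A1bg and Sult2a1, known to be female-predominant in rat, stood at 1462 ± 739 and 725 ± 248 FPKM. Cyp2c7, also female-predominant in rat, was listed at 0 in all 8 livers, and the female list had 1 of its 7 measured members at 0. The Y-linked genes Uty, Usp9y and Sry were listed at 0 in every liver and Ddx3y had 0.27 ± 0.19 FPKM. The 6 measured Y-linked genes, with Eif2s3y and Kdm5d, summed to 0.048 to 0.54 FPKM in controls 1 to 7. In control 8 they summed to 1.66 FPKM.

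The promoters of 4 genes are shown first, as examples of letters then counted over sets of genes. Each line gives the 150 bases before the gene's start from RefSeq on build GRCr8, 5′ to 3′ on the gene's strand, a later build than the Rnor_6.0 used for the FPKM. Capitals mark CG dinucleotides, the TATAAA box and the GTTAAT motif, known from promoters active in hepatocytes. Alb was the most abundant nuclear transcript, Fabp1 the most abundant intracellular one, Pnpla3 was among the most variable, and Rap1a was the least variable.
Alb, chr14:17906980-17907129, minus strand: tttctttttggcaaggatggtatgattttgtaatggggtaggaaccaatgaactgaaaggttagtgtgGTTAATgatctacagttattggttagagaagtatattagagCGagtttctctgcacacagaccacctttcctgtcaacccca
Fabp1, chr4:104749190-104749339, plus strand: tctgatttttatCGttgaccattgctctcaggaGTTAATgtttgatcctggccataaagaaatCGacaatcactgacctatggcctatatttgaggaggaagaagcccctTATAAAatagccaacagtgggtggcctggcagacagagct
Pnpla3, chr7:117173378-117173527, plus strand: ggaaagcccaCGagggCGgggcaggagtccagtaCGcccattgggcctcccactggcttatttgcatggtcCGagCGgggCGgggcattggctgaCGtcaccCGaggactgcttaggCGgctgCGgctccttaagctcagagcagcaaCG
Rap1a, chr2:195974809-195974958, minus strand: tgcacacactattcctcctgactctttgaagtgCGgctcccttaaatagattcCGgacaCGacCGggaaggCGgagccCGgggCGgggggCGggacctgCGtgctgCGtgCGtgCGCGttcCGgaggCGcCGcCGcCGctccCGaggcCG

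The Alb and Fabp1 stretches held 1 and 2 CG dinucleotides, against 11 for Pnpla3 and 20 for Rap1a. GTTAAT was found in Alb and in Fabp1, and the TATAAA letters only in Fabp1 among these 4. In the same stretch Ndufb3, also among the least variable genes, held 9 CG dinucleotides, fewer than Pnpla3, and Ttr held 3 CG and neither motif. The same features were then counted in the 300 bases around the start of the 6903 genes that had a mean of at least 1 FPKM and a single listed start. The most variable set was taken from genes with a mean of at least 5 FPKM and the least variable from at least 10 FPKM. These 2 sets and the 6903 therefore had unlike minimum levels, and the sets were ranked on values as deposited only. TATAAA on the gene's strand was held by 16.5% of the 200 most abundant genes and by 15% of the 200 most variable genes, against 2.5% of the 200 least variable, 4.42% of all 6903 and 9.25% of all 24206 RefSeq promoters with a single start. The median number of CG dinucleotides was 9 in the most abundant, 12 in the most variable and 20 in the least variable set, beside 21 over all 6903. GTTAAT or its complement was held by 13% of the most abundant, 7% of the most variable and 4.5% of the least variable promoters, beside 4.48% over all 6903 genes. CCAAT on either strand was held by 46%, 46% and 44% of the 3 sets and by 38.4% of the 6903. The CACGTG palindrome, a known E-box of clock and lipogenic factors, was held by 4.5% of the most abundant, 9% of the most variable and 9.5% of the least variable set, beside 9.84% of the 6903, and the TGACGTCA palindrome known for CREB by 2% to 4.5% of the sets, beside 3.23%. These shares are descriptions of letters and were not tested.

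The mitochondrial genome gave a large and uneven share of the transcriptome. It held 41.4%, 36.8%, 46.6%, 43.5%, 30.8%, 21.2%, 24.1% and 52.9% of all FPKM in controls 1 to 8, a mean of 37.2% ± 11.1. Controls 6 and 7 were the lowest and controls 8 and 3 the highest. The 13 protein-coding genes of the mitochondrial genome held 99.4% ± 0.0970 of that share. Mt-co1, the catalytic subunit of cytochrome oxidase, led with 49364 ± 17947 FPKM, above Mt-atp6 in all 8 livers. Mt-atp6 and Mt-atp8, both subunits of ATP synthase and partly overlapping in the genome, had 41388 ± 14802 and 39480 ± 14640 FPKM, and their order held in only 4 livers. Mt-co2, Mt-cox3 and Mt-cytb followed at 30592 ± 11539, 28177 ± 10211 and 18601 ± 6986 FPKM. The subunits of complex I ranged from Mt-nd1 at 15924 ± 5772 down to Mt-nd6 at 125 ± 45.7 FPKM, the only protein-coding gene on the light strand.

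**Figure D1:**
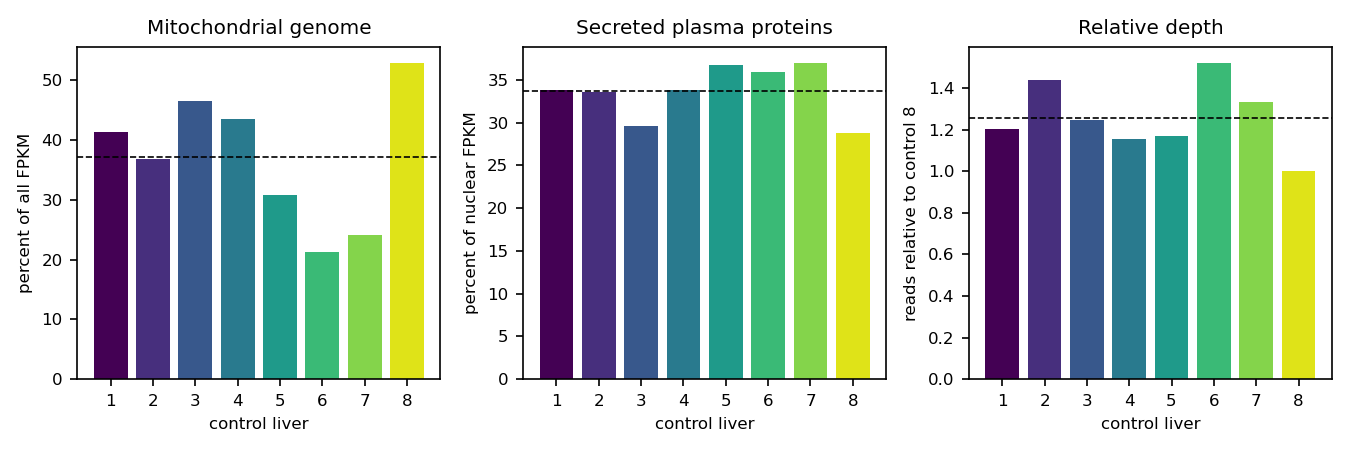
Bars show, for each of the 8 control livers, the percent of all FPKM from the mitochondrial genome, the percent of nuclear FPKM from secreted plasma protein genes, and the number of reads relative to control 8; the dashed line is the mean over livers. Control 8 had the highest mitochondrial share, 52.9%, with the lowest plasma protein share, 28.8%, and the lowest depth, and control 6 had the lowest mitochondrial share, 21.2%, and the greatest depth.

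Livers with more mitochondrial FPKM had a smaller share of plasma protein transcripts among their nuclear transcripts. The mitochondrial share and the plasma protein share had Pearson's r of -0.89 (exact permutation p = 0.0039, adjusted 0.017) and Spearman's rho of -0.86 (p = 0.011, adjusted 0.062) over n = 8 livers, and r was -0.92 without controls 6 and 7. Without control 2 or control 5 the adjusted p of r was 0.052 and 0.050. The share of mitochondrial FPKM also rose with the FPKM sum of a liver, at r of 0.996 (exact permutation p = 2.5e-05, n = 8), the sum being made up in part of that share. Relative depth ran the opposite way in its extremes, as the deepest library had the lowest mitochondrial share and the shallowest the highest, and its part in these relations was not tested. Because nuclear FPKM sums ranged from 358333 to 479695, setting all livers to the same nuclear sum moved the median gene by 0.22 on the log2 scale in control 8 and by -0.14 in control 7.

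Outside the mitochondrial genome a few secreted proteins dominated. The 10 most abundant genes held 21.7% ± 2.08 of nuclear FPKM, the 25 most abundant 32.5% ± 1.75 and the 100 most abundant 48.7% ± 1.78, and 92 to 130 genes were enough for 50% of it in any liver. The list of secreted plasma proteins, of which 96 of 103 were measured and 95 passed 1 FPKM, held 33.7% ± 3.06 (28.8 to 37.0%). Alb, the main carrier and osmotic protein of plasma, had 36490, 29952, 22132, 35644, 47802, 46217, 53863 and 24213 FPKM in controls 1 to 8, a mean of 37039 ± 11479. It was lowest in controls 3 and 8 and highest in control 7, and by itself held 8.51% ± 1.96 of nuclear FPKM.

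The next places by mean belonged to carriers of lipid, hormone, haem and iron. Apoe, an apolipoprotein that mediates uptake of lipoprotein remnants, had 8964 ± 653 FPKM (7582 to 9648), and it was above the next gene in 6 of 8 livers. Its spread of 0.11 was among the smallest 1.91% of all genes, with control 8 the lowest. Fabp1, the cytosolic fatty acid binding protein of hepatocytes, had 7919 ± 1194 FPKM (6814 to 10465) and Ttr, the carrier of thyroxine and retinol-binding protein, 7499 ± 1267 FPKM (5034 to 9519), with Fabp1 above Ttr in 5 of 8 livers. Hp, which binds free haemoglobin, had 6837 ± 1704 FPKM and Tf, the iron carrier, 6086 ± 2292 FPKM. Gc, the vitamin D carrier, and Serpina1, the inhibitor of neutrophil elastase, had 5010 ± 1058 and 4653 ± 1054 FPKM. The small apolipoproteins Apoc3, Apoa2 and Apoc1 stood at 4521 ± 621, 4004 ± 729 and 3917 ± 553 FPKM, while Apoa1 and Apob, the structural proteins of high- and low-density lipoprotein, had 1525 ± 537 and 185 ± 36.1 FPKM. Neighbours in this order mostly did not separate: of the 25 steps between neighbours, only Alb over Apoe held in all 8 livers.

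Fetub, Hpx, Ambp, Rbp4, Hamp and Apoh were also among the secreted proteins of the first 25, at means from 3872 ± 862 for Fetub to 2023 ± 669 for Apoh. Hamp encodes hepcidin, the hormone that limits iron release, and had 3316, 3010.2, 3636, 1846, 3537, 1409, 1870.3 and 3609.7 FPKM in controls 1 to 8, low in controls 4, 6 and 7. Rup2 ranked 7 at 5176 ± 876 FPKM. Enzymes among the first 25 were Mgst1, a membrane-bound glutathione transferase, at 2680 ± 390 FPKM, Hrsp12, a deaminase of reactive imines, at 2411 ± 479 FPKM, Cyp2c12, and Gpx1, the cytosolic selenium-dependent glutathione peroxidase, at 2006 ± 304 FPKM. AABR07004549.1, AABR07022601.1 and LOC100361547 carry no gene name in the table and had 4186 ± 533, 2751 ± 488 and 2902 ± 1132 FPKM.

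**Figure D2:**
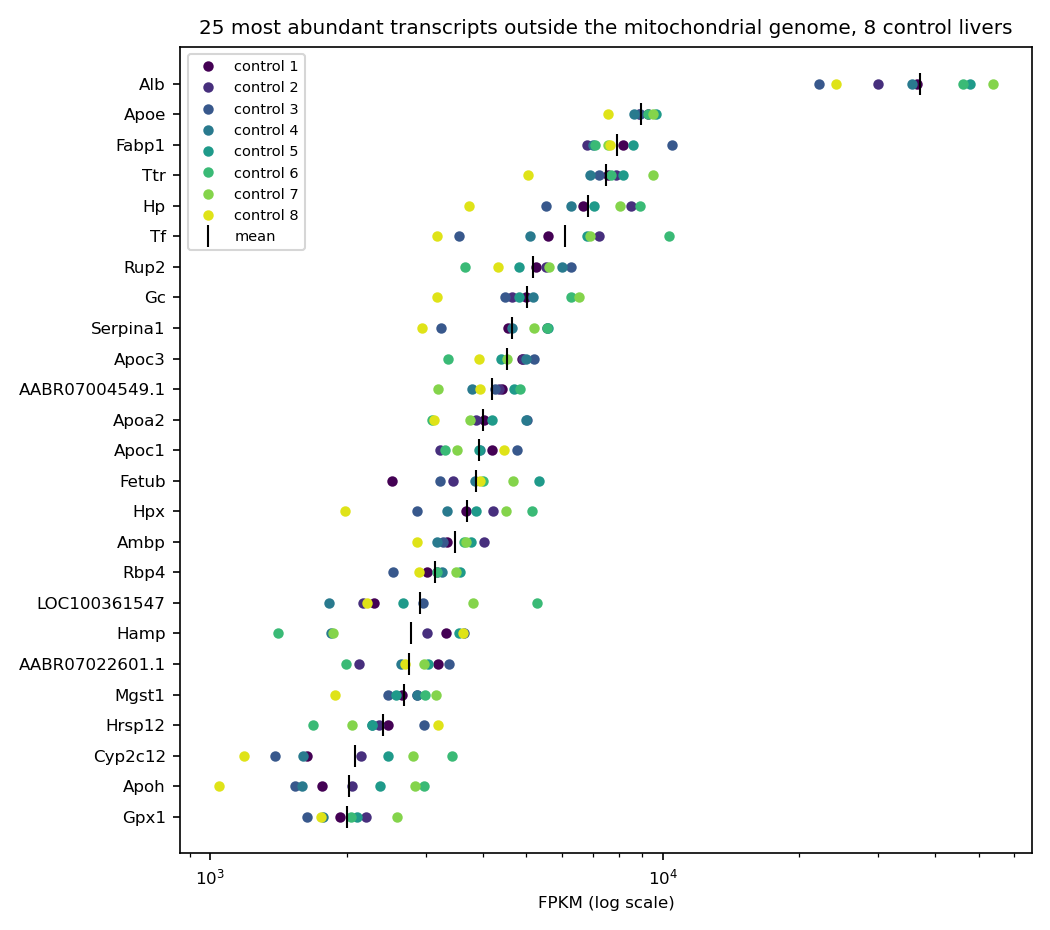
Points show FPKM on a log axis for each of the 8 control livers (colours), and black ticks the mean, for the 25 genes with the highest mean outside the mitochondrial genome. Alb lies apart at 22132 to 53863 FPKM, while the points of most other neighbours overlap.

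The metabolic classes were smaller than the plasma proteins, and several held similar shares. Enzymes and transporters of fatty acid oxidation and ketone production held 2.69% ± 0.364 of nuclear FPKM (36 genes measured, Fabp1 included) and 0.815% ± 0.0821 without Fabp1. Genes matched by symbol as nuclear-encoded respiratory chain subunits held 2.70% ± 0.131 and those matched as ribosomal proteins 2.55% ± 0.183. The symbol patterns also match ATP synthase genes, assembly factors such as Ndufaf1 and kinases such as Rps6ka1. Amino acid catabolism held 2.27% ± 0.446. Conjugating enzymes and cytochromes P450 of drug and steroid metabolism held 1.89% ± 0.0964 and 1.80% ± 0.215. Genes of glycolysis, gluconeogenesis and glycogen held 1.20% ± 0.197, the urea cycle 0.612% ± 0.102, fatty acid and triglyceride synthesis 0.621% ± 0.143 and cholesterol synthesis and uptake 0.362% ± 0.0355. Hepatocyte transcription factors and nuclear receptors together held 0.374% ± 0.0233, and cell cycle genes 0.00862% ± 0.00202, with 7 of 21 above 1 FPKM.

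Gluconeogenic genes were expressed at high levels in these fasted livers. Pck1, which makes phosphoenolpyruvate from oxaloacetate, had 882, 603, 1360.3, 1259, 1457, 1585, 1494 and 1531 FPKM in controls 1 to 8, with controls 1 and 2 the lowest. G6pc, the last enzyme of glucose release, had 405 ± 106 FPKM, and Fbp1, an enzyme of gluconeogenesis, 283 ± 71.3 FPKM. Igfbp1, an insulin-repressed binding protein of insulin-like growth factors, had 687 ± 257 FPKM and was lowest in controls 2 and 1. Cpt1a, the outer gate of mitochondrial fatty acid oxidation, had 15.3 ± 9.46 FPKM. Cpt1a had 7.68, 9.47, 8.64, 2.93, 27.3, 15.99, 24.8 and 25.5 FPKM in controls 1 to 8, so that controls 5 to 8 were all above controls 1 to 4. Acsl1, which activates long-chain fatty acids, was steady at 422 ± 30.8 FPKM.

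Lipogenic genes were present but uneven. Thrsp, a nuclear protein of lipogenic tissue, had 801 ± 191 FPKM and Scd1, which desaturates stearate, 334 ± 160 FPKM. Fasn, the fatty acid synthase, had 98.4, 204, 238, 283, 42.8, 53.8, 57.2 and 54.7 FPKM in controls 1 to 8, and every value of controls 1 to 4 was above every value of controls 5 to 8. Pklr, the liver pyruvate kinase, followed the same split, with 65.8 to 72.6 FPKM in controls 5 to 8 and 92.9 to 184 FPKM in controls 1 to 4. This split was noticed in the values and was not tested, and nothing in the labels sets controls 1 to 4 apart. The share of all genes with the same split was not counted, so the genes named cannot show how common it is. Srebf1, the sterol- and insulin-regulated activator of lipogenesis, had 45.0 ± 19.8 FPKM and Insig2, which holds it in the endoplasmic reticulum, 105 ± 39.3 FPKM. Both belong to 9 rows, with Nr1d1, Nr1d2, Galr1, Galr2, Rxra, Rxrb and Rxrg, whose values carry at most 10 significant digits where the median row carries 15; what was done to these rows is not stated in the sources used here.

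In nitrogen metabolism Ass1, the argininosuccinate synthase, had 976 ± 178 FPKM and Arg1, which releases urea, 681 ± 158 FPKM. Cps1, which fixes ammonia as the entry to the cycle, and Otc, the next enzyme, had 277 ± 60.2 and 294 ± 23.2 FPKM. Among amino acid enzymes Hpd of tyrosine breakdown had 1586 ± 252 FPKM, Bhmt, which remethylates homocysteine, 1357 ± 618 FPKM, and Tat, the tyrosine aminotransferase, 916 ± 179 FPKM. Sds, which deaminates serine for gluconeogenesis, ranged from 14.3 FPKM in control 2 to 196 FPKM in control 8.

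Among the cytochromes P450 Cyp2e1, the ethanol-inducible form, had 916 ± 255 FPKM. Cyp1a2, an aryl hydrocarbon receptor target, had 410.2, 2477, 418, 1317, 473, 563, 388 and 478 FPKM in controls 1 to 8, high in controls 2 and 4. Cyp1a1, a target of the same receptor, had 17.4 and 9.65 FPKM in controls 2 and 4 and at most 1.68 FPKM in the other 6. The bile acid enzymes Cyp7a1, the rate-limiting step of synthesis, and Cyp8b1, which directs it to cholic acid, had 38.4 ± 26.4 and 69.8 ± 26.7 FPKM, with Cyp7a1 from 8.95 in control 3 to 80.7 in control 1. Among clock genes Dbp, a clock output factor, had 0.99 ± 0.33 FPKM, Arntl, the positive arm of the loop, 11.1 ± 1.98 FPKM, and the repressors Per1 and Per2 13.1 ± 7.80 and 5.04 ± 2.69 FPKM.

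Pairs of related genes were compared within each liver, which is nearly free of scaling between livers. In 27 of 29 pairs the mean log2 ratio differed from 0 by the two-sided exact permutation test that flips the sign of each liver (n = 8, adjusted over the 29 pairs, smallest possible p = 0.0078). The first-named gene, in most pairs the form of adult liver, was higher in 25 and lower in 2. The pairs were chosen with earlier results of these data known and mostly with the liver form first. These counts therefore describe the chosen pairs and carry no further weight. Pck1 exceeded the mitochondrial form Pck2 by 8.14 ± 0.23 (SE) on the log2 scale in 8 of 8 livers, with adjusted exact permutation p = 0.0091. G6pc exceeded the widely expressed G6pc3 by 6.00 ± 0.18. Arg1 was above Arg2 in 8 of 8 livers, but Arg2 was listed at 0 in all livers but control 5, so the size of that ratio depends on the pseudocount and is not given. Pklr exceeded Pkm by 4.43 ± 0.36, and Sod1 exceeded the mitochondrial Sod2 by 4.85 ± 0.095. Each of these pairs had the same order in all 8 livers. Acaca, the cytosolic acetyl-CoA carboxylase, was below the mitochondrial-membrane form Acacb, with a log2 ratio of -1.38 ± 0.18, at 5.11 ± 1.57 against 15.6 ± 7.06 FPKM, and the log2 ratio of Cry1 to Cry2 was -0.91 ± 0.14. Got1 and Got2, the cytosolic and mitochondrial aspartate aminotransferases, were not separated: their difference was 0.44 ± 0.36 with exact permutation p = 0.27 and Got1 higher in 6 of 8 livers. Per1 and Per2 differed by 1.13 ± 0.46 with exact permutation p = 0.063 and an adjusted p of 0.065. Without control 2 both pairs passed, at 0.66 and 1.39 with an adjusted exact permutation p of 0.031.

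**Figure D3:**
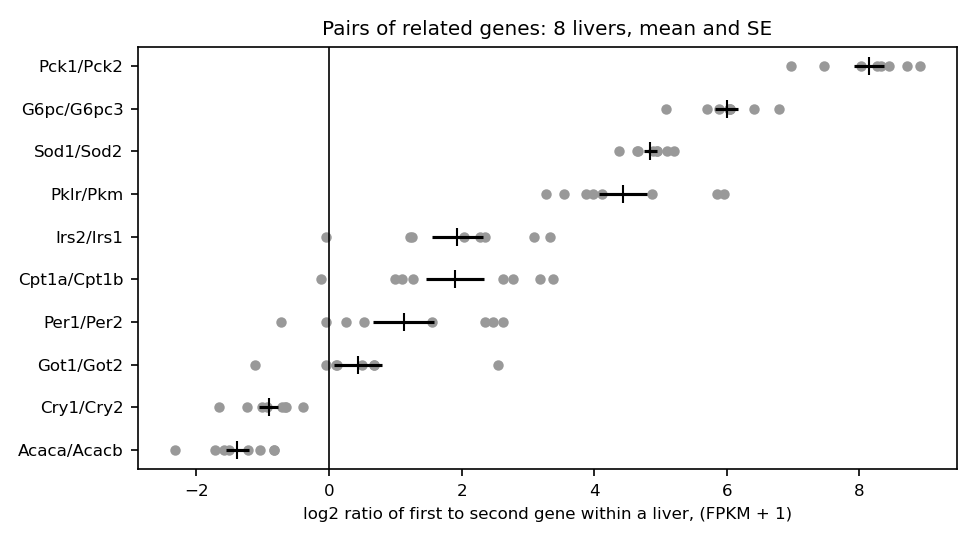
Grey points show the log2 ratio of the first to the second gene, as FPKM + 1, in each of the 8 control livers, with the mean (tick) and SE (bar) in black for the 10 of 29 pairs that are described most closely. Of these, Acaca/Acacb and Cry1/Cry2 lie below 0 in all livers, and Got1/Got2, Per1/Per2, Cpt1a/Cpt1b and Irs2/Irs1 have livers on both sides of 0.

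The spread between livers was modest for most genes. Over 10389 genes with a mean of at least 1 FPKM outside the mitochondrial genome the median SD of log2(FPKM + 1) was 0.29, the lower and upper quartiles were 0.21 and 0.39, and the top decile began at 0.53. Abundant genes were not uniformly steady: among the 25 most abundant, Tf, Hamp and Cyp2c12 had spreads of 0.56, 0.54 and 0.53, in the top decile, and Apoe, Rbp4 and Ambp had 0.11, 0.16 and 0.16. After rescaling to the same nuclear sum Tf and Cyp2c12 fell to 0.43 and 0.39, while Hamp rose to 0.64. The median over all genes was 0.29 on that scale too.

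**Figure D4:**
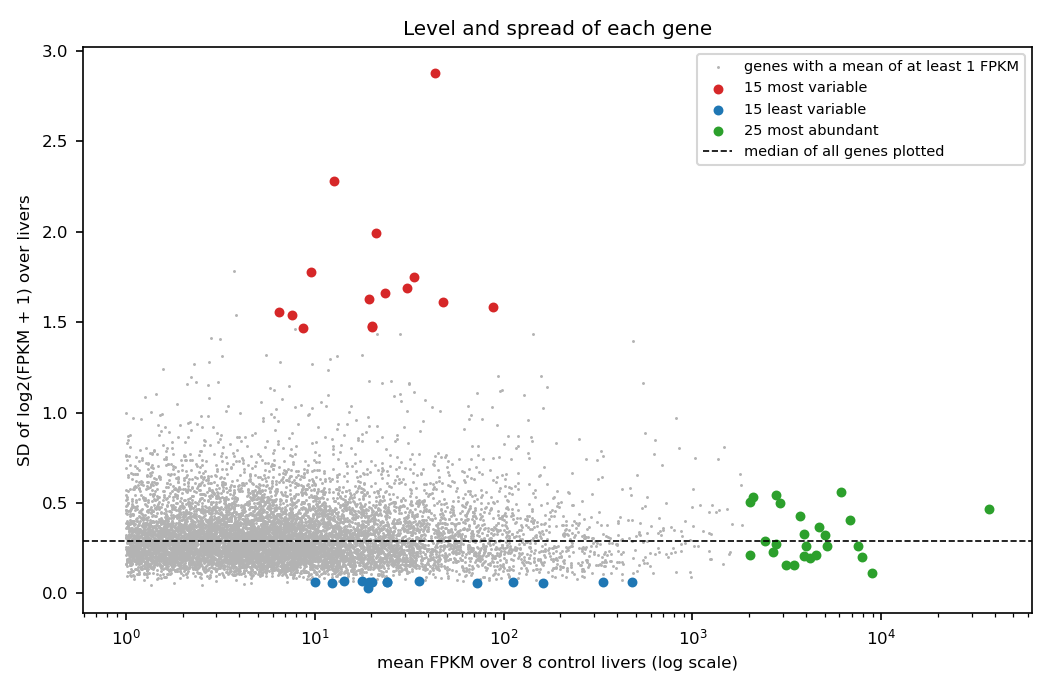
Each grey point is 1 gene, with its mean FPKM over the 8 control livers on a log axis and its SD of log2(FPKM + 1) over livers on the other; red, blue and green points are the 15 most variable, 15 least variable and 25 most abundant genes, and the dashed line is the median of 0.29. The most variable genes have an SD of 1.47 to 2.88 and the least variable of 0.032 to 0.069.

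Of the 15 least variable genes with a mean of at least 10 FPKM, those given here were Rap1a, a small GTPase, at 19.2 ± 0.44 FPKM and a spread of 0.032, then Ndufb3 at 72.7 ± 2.87, RGD1559682, Hypk, Ndufb10 at 113 ± 4.71, Ube2q1, Nr1h2 at 20.02 ± 0.91, Polr3gl, Srsf3, Enpep, Atp5j2 at 478 ± 21.8, Man1b1, Ybx1-ps3 and Ap3d1. Ndufb3 and Ndufb10 are accessory subunits of complex I, Atp5j2 is a subunit of ATP synthase, and Nr1h2 is the oxysterol receptor LXR beta. Rap1a had 19.2, 19.0, 19.6, 19.7, 19.0, 19.4, 19.5 and 18.4 FPKM in controls 1 to 8. This list depended on the scale: after rescaling every liver to the same nuclear sum 0 of the 15 genes remained among the 15 least variable, after median-ratio rescaling 2 remained, and the spread of Rap1a became 0.13. Leaving out a liver, 9 remained without control 3 or control 4, 8 without control 6 and 6 without control 8. Of 84 nuclear genes above 1 FPKM that were matched by symbol to the respiratory chain, 0 were in the top decile of spread. That decile holds 10% of all 10389 genes, and the median spread of the 84 was 0.23. Without control 8, a choice made after the data were seen, 2 of them were in the top decile. Among 21 common reference genes above 1 FPKM the median spread was 0.32, with Eif4a2 the lowest at 0.081, B2m at 0.19, Actb at 0.31, Gapdh at 0.32, Eef1a1 at 0.64 and Pgk1 the highest at 0.67.

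Several of the most variable genes with a mean of at least 5 FPKM were near 0 in some livers and well expressed in others. AABR07031184.1, which has no gene name, had 50.8 to 88.7 FPKM in controls 1 to 5 and 0.39, 0.44 and 0.59 FPKM in controls 6 to 8. Aldh1a7, a cytosolic aldehyde dehydrogenase, had 0, 0.28, 1.10, 0.30, 17.9, 24.6, 23.1 and 34.3 FPKM in controls 1 to 8, so that controls 5 to 8 stood apart from controls 1 to 4. The row ENSRNOG00000003220, the less abundant of 2 rows named H3f3b, had 30.2 to 47.7 FPKM in controls 2, 5, 6 and 8 and 1.45 to 3.40 in the others, while the other H3f3b row held 145 ± 19.5 FPKM. Slc35c2, a nucleotide sugar transporter of the Golgi, had 29.5 to 54.9 FPKM in controls 1, 6, 7 and 8 and 3.92 to 4.42 in the others. RT1-CE16, a class I histocompatibility gene, had 0.31 FPKM in control 4 and 25.1 to 46.2 FPKM elsewhere. Rn60_1_0430.2 had 0.33 FPKM in control 7 against 19.5 to 27.9, and Rps15-ps2 was listed at 0 in control 8 against 14.9 to 36.0. Abhd3, a phospholipase, had 0.093 and 0.12 FPKM in controls 4 and 7 and 16.8 in control 6. A rule set after these values were seen, a gap of at least 2 on the log2 scale between adjacent livers, found 18 of 5926 genes, 0.304%. In 6 of the 18 a single liver was above the gap, in 7 a single liver was below it, and in 3 the livers split 4 against 4. Class I histocompatibility genes, histone copies and pseudogenes share sequence with near-identical copies, so their values are uncertain between copies.

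Several lists had many members in the top decile of spread. In that decile, where 10% of all genes lie, were 15 of 25 immediate early genes above 1 FPKM, 14 of 25 interferon-stimulated genes, 11 of 24 acute phase and inflammation genes and 12 of 26 genes of fatty acid and triglyceride synthesis. Their median spreads were 0.67, 0.65, 0.49 and 0.49, beside 0.29 over all genes. The median spread was higher for adipocyte markers, at 0.99 with 8 of 9 in the top decile, and for red cell markers, at 0.72 with 5 of 6. Of these adipocyte markers Adipoq reached a mean of 1 FPKM only through control 8. The median spread was 0.57 for both the male and the female list, with 4 of 7 and 4 of 6 in the top decile. By the same measure 4 of 46 hepatocyte transcription factors and 0 of 7 cell cycle genes were in the top decile. Of 94 genes matched by symbol as ribosomal proteins 7 were in it, and 11 without control 8. The lists were chosen with earlier results of these data known, and no list was tested.

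Interferon-stimulated genes were high together in 3 livers. Isg15, a ubiquitin-like modifier induced by interferon, had 67.3, 10.3, 9.63, 65.8, 45.2, 16.7, 7.71 and 4.21 FPKM in controls 1 to 8. Mx2, an interferon-induced GTPase, had 43.5, 7.41, 6.69, 42.5, 29.7, 19.3, 10.8 and 1.29 FPKM, and Irf7, the amplifying transcription factor, 71.9, 11.1, 9.83, 29.4, 46.5, 16.6, 11.8 and 5.66 FPKM. For each of the 3 genes controls 1, 4 and 5 were above the other 5 livers. How many of the 25 members above 1 FPKM had this order was not counted. The share of all genes with it was not counted either, so the genes named cannot show how common it is. Isg15 and Ifit3 were related over the livers, with Pearson's r of 0.91 (exact permutation p = 0.0022, adjusted 0.015, n = 8), rho of 0.83 (adjusted exact permutation p = 0.062) and r of 0.91 without controls 1 and 4. Without control 8 the adjusted exact permutation p of r was 0.055. Ugt2b15, a steroid-conjugating glucuronosyltransferase and on no interferon list, had 281, 276 and 385 FPKM in the same controls 1, 4 and 5 and 55.1 to 80.7 FPKM in the others. The values of close family members such as Ugt2b17 can be split between copies.

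The lipid droplet lipase Pnpla3, a target of lipogenic factors, had 168, 243, 116, 68.0, 46.3, 7.34, 28.9 and 28.6 FPKM in controls 1 to 8, highest in controls 1 to 3 and lowest in control 6. Sult4a1, a sulfotransferase best known from brain, had 16.9, 26.6, 11.3, 6.39, 2.92, 0.58, 1.003 and 4.01 FPKM, with controls 1 to 4 the highest for both genes. Elovl6, which elongates palmitate, had 20.9, 29.1, 13.3, 26.5, 11.1, 5.67, 12.2 and 6.55 FPKM, again with controls 1 to 4 all above controls 5 to 8. Irs2, an insulin receptor substrate that insulin represses in liver, had 11.8, 1.93, 11.7, 13.9, 22.2, 27.5, 27.9 and 38.7 FPKM, the other way round, with control 2 far below the rest. Chac1, an enzyme of glutathione breakdown, had 4.17, 3.76, 5.71, 24.5, 7.81, 36.7, 39.6 and 48.3 FPKM and Egr1, an immediate early factor, 22.8, 38.0, 22.6, 116, 178, 148, 127 and 95.1 FPKM, both lowest in controls 1 to 3. On a principal component axis that held 17.3% of the variance, controls 1 to 4 lay on one side of 0 and controls 5 to 8 on the other. Controls 1 to 4 lay at -17.3 to -10.2, while control 5 lay nearest 0, at 3.04, and control 8 farthest, at 26.6. AABR07031184.1, Pnpla3, Sult4a1 and Fasn were at the end of controls 1 to 4, and Aldh1a7, Gem, Chac1 and Irs2 at the other. What, if anything, divides these livers is not given in the labels, and the share of all genes with this split was not counted.

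**Figure D5:**
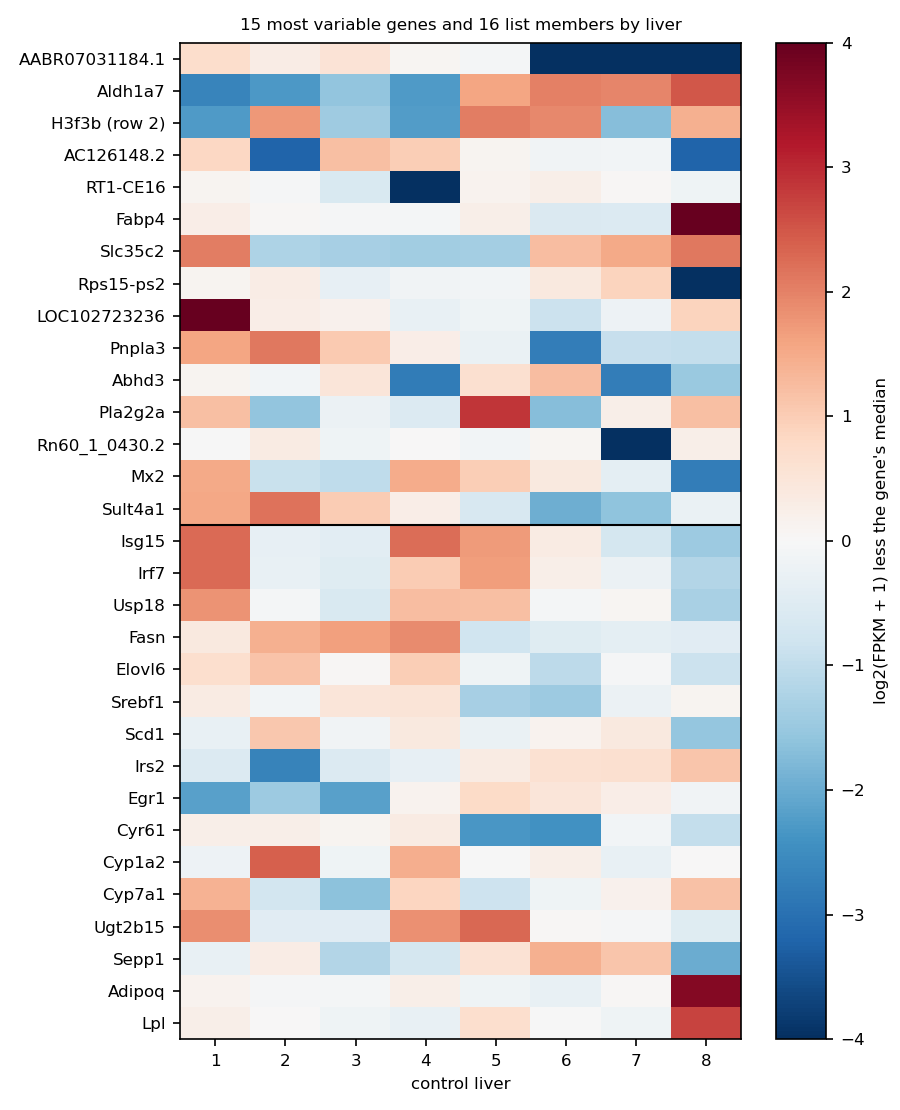
Colours show log2(FPKM + 1) less the gene's median for the 15 most variable genes (above the line, where "row 2" marks the less abundant H3f3b row) and 16 list members chosen after their values were seen (below it) in the 8 control livers; the scale ends at 4 in either direction. Isg15, Irf7 and Usp18 are high in controls 1, 4 and 5, Fasn in controls 1 to 4, and Fabp4, Adipoq and Lpl in control 8.

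The relations counted here, and adjusted together, include that of the mitochondrial share with the FPKM sum, which is partly built in. Of 20 relations between measures over the 8 livers, 6 passed an adjusted p of 0.05 by Pearson's r. Beside those given above these were Pck1 with Igfbp1 (r = 0.93, exact permutation p = 0.0043, adjusted 0.017; rho = 0.83, adjusted p 0.062), Fos with Nr4a1 (r = 0.73, p = 0.011, adjusted 0.038; rho = 0.90, adjusted p 0.046, exact permutation), and Col1a1 with Col3a1 (r = 0.97, exact permutation p = 0.00084, adjusted 0.0084; rho = 0.76, adjusted p 0.12). The relation of Pck1 and Igfbp1 rested on controls 1 and 2, without which r was 0.38, and without either of them alone the adjusted exact permutation p was 0.11 and 0.085. Fos and Nr4a1, immediate early genes, kept an r of 0.95 without controls 4 and 7, and lost the adjusted threshold without control 1, 2, 3, 5 or 6. The collagens kept r of 0.90 without controls 2 and 8. Fasn with Acaca, enzymes of fatty acid synthesis, had r of 0.72 (exact permutation p = 0.035, adjusted 0.079). After rescaling to the nuclear sum this relation passed, at r of 0.76 with an adjusted exact permutation p of 0.049. No relation passed for the clock pairs: Dbp with Per2 had r of 0.30, Dbp with Arntl 0.040 and Per1 with Per2 -0.36.

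Control 8 stood apart most often. By Dixon's ratio at its 95% critical value for 8 samples, 539 of 10389 genes had an outlying liver, 5.19%, near the 1 in 20 that chance gives. A single higher liver was found in 2.18% of genes and a single lower liver in 3.01%. Control 8 was the outlying liver in 210 of the 539, higher in 61 genes and lower in 149, followed by control 3 with 69 higher and 30 lower. These counts are of values as deposited, and control 8 had the lowest nuclear FPKM sum, 358333, and the shallowest library. After rescaling to the nuclear sum 518 genes had an outlying liver, but they were not counted by liver. The part of scale and depth in the lower values of control 8 was not tested. Fabp4, the fatty acid binding protein of adipocytes and macrophages, had 198 FPKM in control 8 and 4.51 to 8.99 FPKM in the other 7. Adipoq, the adipocyte hormone adiponectin, had 20.8 FPKM against 0.42 to 1.03, Sncg 36.0 against 1.57 to 3.77, and Gsn, an actin-severing protein, 54.0 against 4.56 to 7.09 FPKM. Of 12 adipocyte markers 10 were highest in control 8, beside 15.3% of all nuclear genes above 0, Lep and Retn among them at 3.71 and 7.04 FPKM, and the list summed to 707 FPKM there and to 88.1 to 306 FPKM in the other livers. Without control 8 the number of adipocyte markers in the top decile of spread fell from 8 of 9 to 2. The minimum mean of 1 FPKM was applied again without control 8, and Adipoq then fell below it. The 2 are therefore not out of 9, and the fall was partly set by that minimum. Red cell markers were also highest in control 8, 6 of 8 of them against the same 15.3%, with Hba1 at 1783 FPKM against 323 to 1106 FPKM. Adipoq and Fabp4 had r of 0.98 over the 8 livers at an adjusted exact permutation p of 0.079 (0.041 after rescaling to the nuclear sum). Without control 8 r was 0.30, and without controls 6 and 8 it was -0.18, so the relation rests on control 8. The part of adipose tissue or blood in the values of control 8 was not tested. Among the genes with their lowest value in control 8 were Sepp1, the plasma selenium carrier, at 115 FPKM against 201 to 1214, and Spink1, a trypsin inhibitor, at 15.7 against 24.8 to 118 FPKM.

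On the leading principal component axis, which held 37.2% of the variance, control 8 lay at one end and control 6 at the other, and the order of the livers was that of the mitochondrial share but for controls 2 and 5. Sepp1, Ces2j, Mpeg1 and Pigr lay at the end of controls 6 and 7, and Fabp4, Sncg, Adipoq and Pf4 at the end of control 8. Sepp1 had 368, 560, 201, 276, 682, 1214, 987 and 115 FPKM in controls 1 to 8. Itih2, a heavy chain that binds hyaluronan, had 75.1, 111, 53.0, 61.7, 128, 169, 170 and 34.2 FPKM, the same ends. Of 95 plasma protein genes 15 were in the top decile of spread as deposited and 8 after rescaling to the nuclear sum, while C8g and Mst1 had spreads of 0.093 and 0.088 as deposited. The part of depth and of the mitochondrial share in these values was not tested.

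Other cell types left small but measurable signals. Kupffer cells, the resident macrophages, gave Clec4f at 124 ± 32.3 FPKM, the complement genes C1qa, C1qb and C1qc at 77.3 to 105 FPKM and Marco at 15.6 ± 10.1 FPKM. All 12 markers of these cells were above 0, and 8 of the 12 were highest in control 5, beside 10.9% of all nuclear genes above 0. Sinusoidal endothelial markers were led by Lyve1 at 19.2 ± 5.14 FPKM, with Fcgr2b steady at 11.8 ± 1.19 FPKM and Stab2 at 1.86 ± 0.60 FPKM. Stellate cell and fibroblast markers were led by Ecm1 at 79.3 ± 20.4 and Col3a1 at 45.3 ± 24.4 FPKM, with Col1a2 listed at 0. Of 10 cholangiocyte markers 3 passed 1 FPKM, among them Epcam at 4.24 ± 0.41 FPKM and Krt19 at 2.25 ± 1.44 FPKM. T and NK cell markers summed to 28.0 ± 4.33 FPKM, B and plasma cell markers to 12.1 ± 4.43 FPKM and neutrophil markers to 25.3 ± 11.4 FPKM. The 6 mesothelial markers were all highest in control 5, against the same 10.9%, and summed there to 20.2 FPKM against 0.25 to 4.64 FPKM in the others, and Msln reached 11.5 FPKM. In the same liver Pla2g2a, a secreted phospholipase, had 31.7 FPKM, against 9.41 at most elsewhere. Cpa1, a pancreatic carboxypeptidase, had 95.2, 106, 88.1, 292, 197, 11.3, 258 and 98.7 FPKM in controls 1 to 8, while Prss1, Prss2, Pnlip, Amy2a3 and Clps of the same acinar list were listed at 0 and the other 6 had means of at most 1.18 FPKM.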

How the data were processed

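RNA-seq values of 8 control rat livers were used. The authors trimmed reads with Seqtk, aligned them with HISAT2 2.0.4 to Rnor_6.0 and deposited FPKM per gene from StringTie, so counts and absolute depth are not analysed here. A second row of a repeated identifier, at 0, was left out; where rows shared a symbol, the row with the higher mean was used, and 27 rows with a date in place of a symbol were kept by identifier. No group was compared with another. Spread was the SD of log2(FPKM + 1), pseudocount 1. Tests were exact two-sided permutations over livers with Benjamini-Hochberg adjustment, run in Python 3.11.15 with numpy 2.4.6, and were tested on simulated data. Named genes were the 25 most abundant, the 15 most and 15 least variable, the mitochondrial protein-coding genes, members of lists by level or spread, pairs, relations, and genes that differed most in a liver standing apart; others, among them the genes with gaps, were chosen after their values were seen. Members and lists were chosen with earlier results of these data known. Alternatives were left-out livers, other pseudocounts, rescaling, filters and measures of spread. The counts of list members and of genes with gaps, with their alternatives, were added after seeing the data. Promoters were matched to RefSeq (GRCr8) by symbol, for 7307 of 10389 genes, 6903 of them with a single start. Some named genes are not reported here.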

Additional observations from a re-analysis of the deposited data

Results flagged for a closer look

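Of 96 quantities examined, 10 had a liver whose gap to its nearest neighbour, relative to the whole range, was above Dixon's 95% critical value of 0.526 for 8 samples. Chance flags about 1 in 20 groups, a rate that does not apply to the genes examined because they were the most variable. In control 8 the summed FPKM of conjugating enzymes was 6310, below the next liver at 7949; of Y-linked genes 1.66, above 0.54; of adipocyte markers 707, above 306; and Fabp4 was 198, above 8.99. These sums are of FPKM as deposited, and control 8 had the lowest nuclear FPKM sum, 358333. As a share of nuclear FPKM the conjugating enzymes ranged only from 1.76 to 2.05% over the 8 livers. In control 5 the mesothelial markers summed to 20.2, above 4.64, and Pla2g2a was 31.7, above 9.41. The skeletal muscle markers summed to 1.55 in control 2, above 0.92. RT1-CE16 was 0.305 in control 4, below 25.1, LOC102723236 was 284 in control 1, above 26.0, and Rn60_1_0430.2 was 0.335 in control 7, below 19.5.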

How the results depend on the processing

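No paired analysis was possible because no groups were compared. Leaving out each liver in turn, the mitochondrial share ranged from 34.9 to 39.4%, the plasma protein share from 33.2 to 34.4%, all 25 most abundant genes kept their place in the 25, 12 to 14 of the 15 most variable and 6 to 14 of the 15 least variable genes were kept, 27 to 29 pairs passed, and 3 to 7 relations passed (3 without control 2, beside 6). The least variable genes kept 0 of 15 after rescaling to the nuclear sum, 2 after median ratios, 2 with no filter beyond a mean above 0.1 FPKM, 9 with the doubled minimum and 9 by the SD less a running median; the most variable genes kept 5 by the coefficient of variation. Chosen after seeing the data, the share of fatty acid oxidation and ketone production without Fabp1 was 0.815%, beside 2.69%, as that gene alone was left out. A minimum of 5 FPKM left 5951 expressed genes beside 10422 at 1 FPKM. With no filter beyond 0.1 FPKM, 995 genes had an outlying liver beside 539. TATAAA was in 24% of the 100 most abundant genes, beside 16.5% of 200. Relations changed sign for Hspa8 and Hsph1 (-0.012 with a pseudocount of 0.1, -0.017 by median ratios, -0.44 to 0.44 leaving out livers), Igf1 and Igfals (-0.39 at the nuclear sum, -0.099 by median ratios, -0.097 to 0.32), Dbp and Arntl (-0.042 by median ratios, -0.091 to 0.32), Dbp and Per2 (-0.64 to 0.70), and Cyp7a1 and Cyp8b1 (-0.40 to 0.52); none of these 5 passed the adjusted threshold. The cause was not tested, and the absolute depth behind low values is unknown.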
